A study of Homo sapiens with 6 samples.

Results

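The S100 calcium-binding proteins were followed in HT-29, a human colon adenocarcinoma line, through 10 genes: S100A2, S100A3, S100A4, S100A6, S100A10, S100A11, S100A13, S100A14, S100A16 and S100P. They were chosen by name, with earlier results of these data known, as the probe sets that the array annotation assigns to these genes. The 10 genes had 13 probe sets and stood among 19775 genes measured by at least 1 probe set of their own. Expression had been measured on Affymetrix human arrays in 3 cell variants, BR200, BR100 and wild type, with 2 arrays each. Each variant was labelled once with an Express kit, from 100 ng of RNA, and once with a One-Cycle kit, from 3 ug. The labels describe HT-29 cells kept in bortezomib, an inhibitor of the proteasome, starting at 20 nM and reaching 300 nM stepwise in 7 months. After that, 2 rounds of limiting dilution over 4 months at 100 or 300 nM gave clonal isolates. BR200 and BR100 are taken here as such isolates, so each stands for 1 clone. The wild type samples carry the same treatment text. The cloning dose of BR200 and the presence of drug at harvest are not stated in it. All variants shared the same McCoy's 5a medium with fetal bovine serum.

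S100 proteins are small acidic proteins that carry a pair of EF-hand motifs, loops that bind calcium, and most of them act as dimers. When calcium binds, a hydrophobic surface opens and takes hold of a partner protein such as an annexin or a myosin. Some family members are also released from cells and bind receptors such as RAGE, the product of AGER. Many are expressed in epithelia and their carcinomas, and S100P and S100A4 are known from colon cancer.

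Of the 10 genes, 9 were expressed well above background in all variants. The levels of 7 of these were lower in both bortezomib-resistant clones than in wild type. Over all genes tested, 31.2% were called lower in BR200 and 31.8% in BR100, and the share lower in both was not counted. S100A14, S100A2 and S100P fell by more than 2-fold in each clone. S100A4 separated the clones: it was 4.92-fold lower than wild type in BR100 and 1.38-fold lower in BR200. S100A6, S100A11 and S100A16 fell by small amounts, and S100A13 did not pass the test in either clone. S100A10 did not pass by its brighter probe set, while its dimmer one was lower in BR100. S100A3, a gene known from hair follicles, was not above background, at a log2 value of 2.25 on all 6 arrays.

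The upstream 250 bases of the genes whose levels moved most are shown, so that the start regions can be set side by side. Those of S100A10, whose level did not pass by its brighter probe set, are shown with them. They come from RefSeq (GRCh38.p14), whose table held all 10 genes, some with more than 1 start. Each is printed 5′ to 3′ on the gene's strand, ending at the base before the annotated start, and for S100A2 the outermost start was taken. Capitals mark matches, on either strand, to TATAAA (the TATA box), CCAAT (the CAAT box), GGGCGG (the core of the GC box), TGANTCA (the AP-1 motif), GAANNTTC (a heat shock element core) or TGACNNNGC (an antioxidant response element core).
S100A14, chr1:153616326-153616575, minus strand: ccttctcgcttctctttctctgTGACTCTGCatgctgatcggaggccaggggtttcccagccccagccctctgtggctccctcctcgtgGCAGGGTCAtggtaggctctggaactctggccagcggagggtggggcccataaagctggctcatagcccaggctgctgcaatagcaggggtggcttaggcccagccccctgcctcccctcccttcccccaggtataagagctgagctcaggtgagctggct
S100A2, chr1:153565845-153566094, minus strand: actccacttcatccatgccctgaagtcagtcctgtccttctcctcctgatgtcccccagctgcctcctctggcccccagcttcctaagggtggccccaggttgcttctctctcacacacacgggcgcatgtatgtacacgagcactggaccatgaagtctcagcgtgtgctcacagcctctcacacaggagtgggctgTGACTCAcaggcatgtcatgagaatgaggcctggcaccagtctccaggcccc
S100P, chr4:6693628-6693877, plus strand: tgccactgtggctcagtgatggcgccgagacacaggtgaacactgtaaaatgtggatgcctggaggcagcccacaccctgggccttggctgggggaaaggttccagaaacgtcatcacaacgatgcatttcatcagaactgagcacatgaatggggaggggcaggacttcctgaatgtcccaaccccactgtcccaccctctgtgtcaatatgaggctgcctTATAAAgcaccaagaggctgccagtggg
S100A4, chr1:153545807-153546056, minus strand: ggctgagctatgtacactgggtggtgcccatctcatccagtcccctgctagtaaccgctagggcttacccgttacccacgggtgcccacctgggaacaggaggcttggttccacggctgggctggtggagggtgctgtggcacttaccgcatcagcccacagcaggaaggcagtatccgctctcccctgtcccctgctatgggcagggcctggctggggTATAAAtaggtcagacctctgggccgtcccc
S100A10, chr1:151993860-151994109, minus strand: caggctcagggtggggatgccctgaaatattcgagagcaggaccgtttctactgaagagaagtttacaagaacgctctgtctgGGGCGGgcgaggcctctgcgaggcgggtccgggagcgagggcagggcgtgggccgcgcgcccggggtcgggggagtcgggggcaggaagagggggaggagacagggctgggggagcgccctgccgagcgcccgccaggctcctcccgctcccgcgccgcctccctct
TATAAA stood 31 bases before the start of S100A4 and 28 before that of S100P, as in 1 of the 3 windows of S100A13, and 10.7% of 35116 RefSeq start windows of the same length hold it. The S100A2 window held 1 TGANTCA match, 52 bases before the start, a motif in 6.57% of all windows. S100A14 held 2 TGACNNNGC matches, found in 10.9% of all windows, and S100A10 held 1 GGGCGG match, found in 42.6%. GAANNTTC occurred in 5.78% of all windows and in none of the 14 windows of the 10 genes, and CCAAT in 32.0% of all windows and in none of the 5 printed. The S100A10 window held 24 CpG dinucleotides, against 4 in each of S100A14, S100A2 and S100P, 7 in S100A4 and a median of 11 over all windows. Of the windows not printed, S100A6 held 24 and S100A11 held 15, and both genes were called lower in both clones. The S100A13 windows held 15, 10 and 8, those of S100A16 1 and 6, that of S100A3 4 and the second of S100A2 3. Whether CpG number goes with the changes was not tested. A match is a description of letters, and binding was not measured.

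All 6 arrays had been normalized together, with a shared lowest log2 value of 2.23 and highest values of 16.1 to 16.3. Across the genes tested, arrays of the same variant correlated at r = 0.983 to 0.985 (across genes, which are not independent replicates). The clones correlated with each other at 0.986 to 0.987 within a kit and with wild type at 0.891 to 0.904. Colon epithelial markers were present: 8 of 10 passed the filter, among them EPCAM, CDH1, KRT8, KRT18 and KRT20, whereas CDX2 stood at the lowest value and CDX1 at 2.91 on all arrays. Summed over the 10 markers the level was 16.9 in BR200, 16.8 to 16.9 in BR100 and 17.2 in wild type (log2 of the summed signal). Of the 8, 5 were called lower in both clones (LGALS4, VIL1, CEACAM5, CDH1 and KRT20) with none higher. Among all genes tested 31.2% were called lower in BR200 and 31.8% in BR100. Of 6 fibroblast markers COL1A1 alone passed the filter, of 6 blood cell markers CD14 and LYZ did, and of 4 endothelial markers none did. PTPRC, CD3E and COL3A1 were at the lowest value on all arrays. The summed log2 level was 6.17 in BR200, 6.02 to 6.17 in BR100 and 6.31 to 6.32 in wild type for the fibroblast list. For the blood list it was 14.59 to 14.79 in BR200, 14.40 to 14.84 in BR100 and 14.34 to 14.56 in wild type. Nearly all of that sum was LYZ, with means of 14.69 in BR200, 14.61 in BR100 and 14.44 in wild type. LYZ was not called in either clone, and CD14 rose by 1.05 in BR200 (limma adjusted p = 0.0013). For the endothelial list the summed level was 4.30 to 4.32 in BR200, 4.31 to 4.37 in BR100 and 4.31 in wild type. The gap between the 3' and 5' probe sets of ACTB, which grows with RNA breakage and short labelling products, was 1.76 to 3.24 in BR200, 1.86 to 3.03 in BR100 and 2.99 to 4.22 in wild type (log2 difference). Within each kit it was larger in wild type than in both clones, and its part in the S100 differences was not tested. In cell populations measured in bulk, fewer cells expressing a gene and less RNA per cell cannot be told apart.

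**Figure D1:**
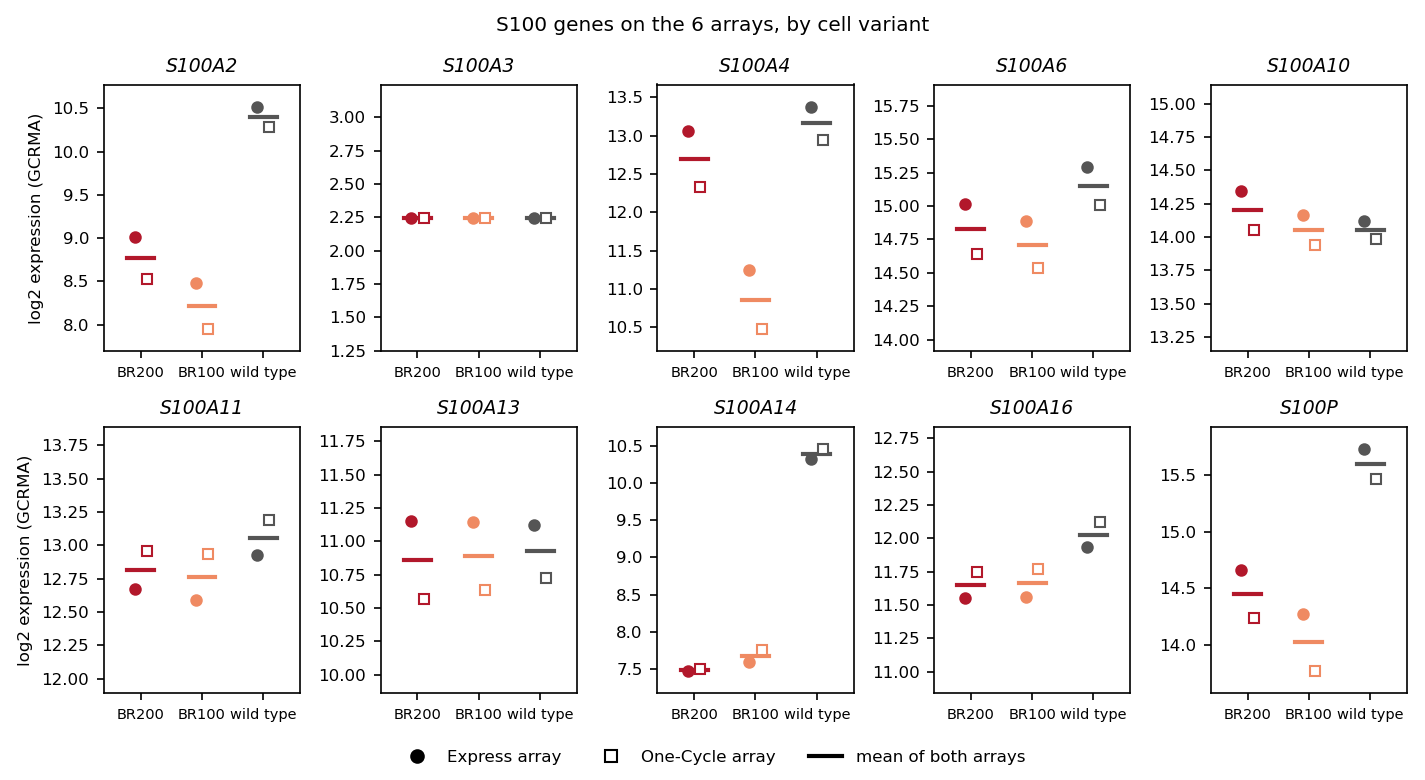
Log2 expression (GCRMA) of the 10 S100 genes on the vertical axis, by cell variant on the horizontal axis, with circles for Express arrays, squares for One-Cycle arrays and bars for the mean of both. Each panel has its own range of at least 2 log2 units, and S100A14, S100A2 and S100P show both clones below wild type without overlap, while S100A4 is lowest in BR100 and BR200 overlaps with wild type.

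The largest differences belonged to S100A14, an S100 protein of epithelia that has been described as a RAGE ligand. Its log2 level was 7.47 (Express) and 7.51 (One-Cycle) in BR200, 7.60 and 7.75 in BR100, and 10.33 and 10.46 in wild type. Every array of either clone lay more than 2 log2 units below every wild type array, and the arrays of a variant lay close to each other. The fall was 7.50-fold in BR200 (log2 change −2.91, SE 0.0706, limma adjusted p = 0.000101) and 6.60-fold in BR100 (−2.72, SE 0.0706, limma adjusted p = 8.42e-05). Of all genes tested, 2.66% changed by a larger amount in BR200 and 3.57% in BR100. BR200 minus BR100 was −0.19 (95% interval −0.38 to 0.0047, limma adjusted p = 0.166), so the clones did not differ past the threshold.

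S100P, which binds ezrin and, outside the cell, RAGE, had log2 levels of 14.66 and 14.24 in BR200, 14.27 and 13.76 in BR100, and 15.74 and 15.47 in wild type (Express first). Both clones lay below wild type on every array. Its level fell 2.23-fold in BR200 (log2 change −1.15, SE 0.0868, limma adjusted p = 0.000696) and 3.00-fold in BR100 (−1.58, SE 0.0868, limma adjusted p = 0.000308). The difference between the clones, 0.43 (95% interval 0.19 to 0.66), had a limma adjusted p of 0.0538 (0.00187 to 0.62 over the alternatives tried), and their arrays overlapped across kits. In wild type only 10 genes on the Express array and 21 on the One-Cycle array had a higher value than S100P. In the clones 77 and 114 genes did in BR200 and 117 and 215 in BR100, so the wild type values stood near the top of the measured range.

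S100A4, also called metastasin, binds nonmuscle myosin and is known for its part in cell motility and invasion. Its log2 level was 13.06 and 12.33 in BR200, 11.24 and 10.48 in BR100, and 13.38 and 12.94 in wild type (Express first). BR100 was below all other arrays, while the Express array of BR200 exceeded the One-Cycle array of wild type. Within each kit BR200 was below wild type, by 0.32 on Express and 0.62 on One-Cycle arrays (log2 difference). The fall was 4.92-fold in BR100 (log2 change −2.30, SE 0.109, limma adjusted p = 0.00023) and 1.38-fold in BR200 (−0.47, SE 0.109, limma adjusted p = 0.0191). The BR200 call was lost without either BR200 array, without the wild type One-Cycle array, without the kit in the model and without the filter on low values (limma adjusted p = 0.0686, 0.122, 0.0509, 0.387 and 0.136).

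BR200 was 3.56-fold above BR100 for S100A4 (log2 difference 1.83, 95% interval 1.54 to 2.13, SE 0.109, limma adjusted p = 0.00645). The difference was 1.82 between Express arrays and 1.85 between One-Cycle arrays. Only 0.723% of all genes tested differed more between the clones. Without either array of BR200 or BR100 the difference was 1.74 to 1.92 and no longer passed (limma adjusted p = 0.0719 to 0.0993). In those reduced fits no gene passed, with 1953 to 2135 genes at an unadjusted p under 0.05. The call was also lost without the kit in the model (limma adjusted p = 0.149) and with no filter on low values (0.101).

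S100A2, a mostly nuclear S100 protein, had log2 levels of 9.01 and 8.52 in BR200, 8.47 and 7.95 in BR100, and 10.52 and 10.28 in wild type (Express first). The 3 variants did not overlap, with wild type highest and BR100 lowest. It fell 3.09-fold in BR200 (log2 change −1.63, SE 0.0988, limma adjusted p = 0.000424) and 4.55-fold in BR100 (−2.19, SE 0.0988, limma adjusted p = 0.000208). BR200 exceeded BR100 by 0.56 (95% interval 0.29 to 0.82, limma adjusted p = 0.0438). That difference did not pass without any 1 of the 6 arrays, where it was 0.48 to 0.64 (limma adjusted p = 0.0728 to 0.236), nor without the kit in the model (0.507) or without the filter (0.229).

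**Figure D2:**
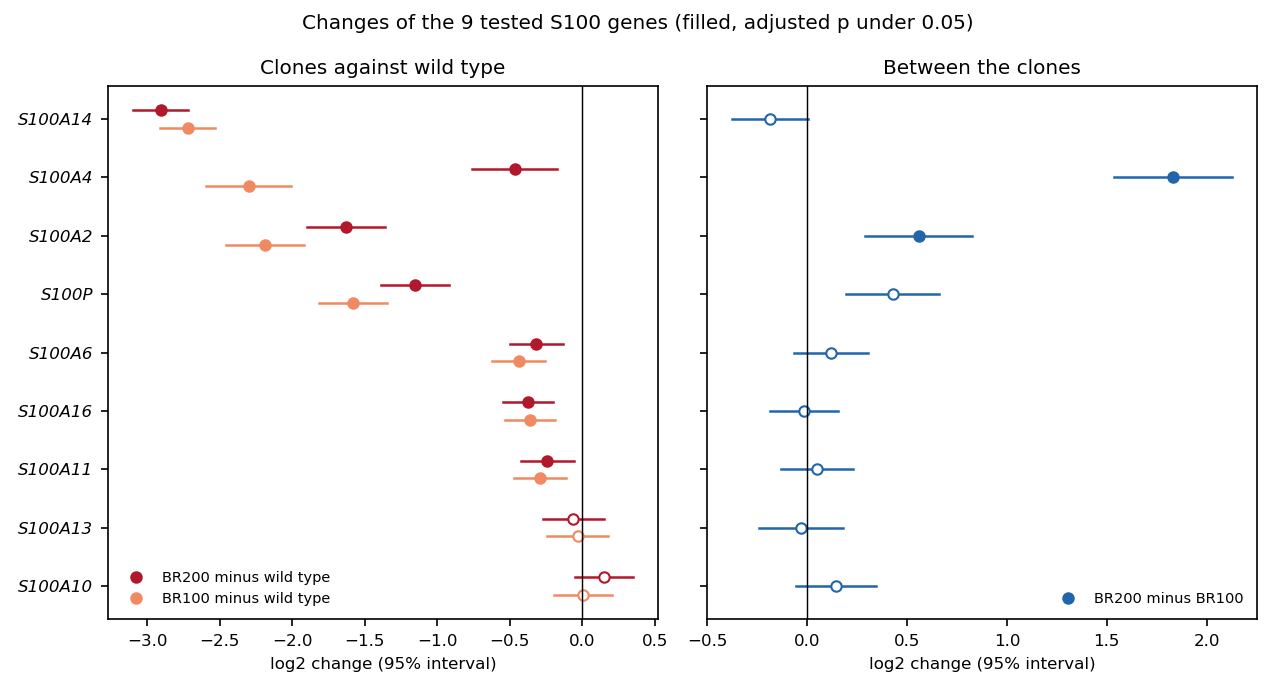
Log2 change with its 95% interval from the limma model for the 9 tested S100 genes, clones minus wild type on the left and BR200 minus BR100 on the right. Filled points had an adjusted p under 0.05. The 7 genes from S100A14 to S100A11 lie below 0 in both clones, and S100A4 and S100A2 are filled between the clones.

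S100A10, S100A11 and S100A6 are S100 proteins with well known partners. S100A10, which does not bind calcium and forms a tetramer with annexin A2, had log2 levels of 14.35 and 14.06 in BR200, 14.17 and 13.94 in BR100, and 14.12 and 13.99 in wild type (Express first). The variants overlapped, and the change was 0.15 in BR200 (95% interval −0.053 to 0.35, limma adjusted p = 0.147) and 0.0018 in BR100 (−0.20 to 0.20, limma adjusted p = 0.988). These values are from its brighter probe set. The dimmer one, 238909_at, was lower in BR100 by −1.27 (limma adjusted p = 0.000924), and which of them stands for the gene was not settled. S100A11, a partner of annexin A1, had levels of 12.67 and 12.96 in BR200, 12.59 and 12.94 in BR100, and 12.92 and 13.19 in wild type. Its falls were 1.18-fold in BR200 (log2 change −0.24, SE 0.0666, limma adjusted p = 0.0315) and 1.22-fold in BR100 (−0.29, SE 0.0666, limma adjusted p = 0.0171). These are no larger than the kit difference of −0.30 for the same gene, and the arrays overlapped across kits. Without the kit in the model neither S100A11 call was kept (limma adjusted p = 0.373 in BR200 and 0.280 in BR100). The BR200 call of S100A11 was lost without any 1 of the 6 arrays (limma adjusted p = 0.0662 to 0.155). Its BR100 call was lost without either BR100 array or the wild type Express array (limma adjusted p = 0.067 to 0.111). S100A6, or calcyclin, which binds the CACYBP protein, had levels of 15.02 and 14.64 in BR200, 14.89 and 14.53 in BR100, and 15.29 and 15.01 in wild type. It was lower by 0.32 in BR200 (SE 0.0681, limma adjusted p = 0.0146) and by 0.44 in BR100 (SE 0.0681, limma adjusted p = 0.00513). Only BR100 was free of overlap with wild type. Without the kit in the model neither S100A6 call was kept (limma adjusted p = 0.294 in BR200 and 0.164 in BR100). The BR200 call of S100A6 was lost without either BR200 array and without the wild type One-Cycle array (limma adjusted p = 0.0612 to 0.103).

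S100A16, a widely expressed member, had levels of 11.56 and 11.75 in BR200, 11.56 and 11.77 in BR100, and 11.94 and 12.12 in wild type (Express first). Both clones lay below wild type on all arrays. The changes were −0.38 in BR200 and −0.36 in BR100 (SE 0.0639 each, limma adjusted p = 0.00709 and 0.00768), and the clones differed by −0.016 (95% interval −0.19 to 0.16). Without the kit in the model neither S100A16 call was kept (limma adjusted p = 0.0975 in BR200 and 0.104 in BR100). Without either array of a clone, that clone's change did not pass (limma adjusted p = 0.055 and 0.0566 in BR200, 0.0581 and 0.0528 in BR100). S100A13, which takes part in the export of FGF1 from cells, had levels of 11.15 and 10.57 in BR200, 11.15 and 10.64 in BR100, and 11.12 and 10.73 in wild type. Kits separated its arrays and variants did not: the changes were −0.064 in BR200 (95% interval −0.27 to 0.15) and −0.032 in BR100 (−0.24 to 0.18), with limma adjusted p = 0.508 and 0.74.

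Counted together, 7 of the 9 tested genes were called lower in BR200 and 7 of 9 in BR100, and the same 7 genes were lower in both. Every array of the clone lay below every wild type array for 4 of the 9 in BR200 and 6 in BR100, as it did for 32.8% and 33.8% of all genes tested. Over all genes tested, 31.2% were called lower in BR200 (66.5% in either direction) and 31.8% in BR100 (68.5% in either direction). No S100 gene was called higher in either clone by limma, and none was higher at an unadjusted p under 0.05. With the trend and robust form of the test S100A10 was higher in BR200 (limma adjusted p = 0.0268). The median log2 change of the 9 genes was −0.38 in BR200 and −0.44 in BR100, beside 0.038 and 0.040 over all 10370 genes tested. The clones were compared with the same wild type arrays, so these counts are not independent of each other. The S100 genes were chosen with earlier results of these data known, so the counts and medians do not test the family. S100A7A, outside the chosen set, also passed the filter and was not called (0.19 in BR200 and 0.22 in BR100). The lowest value of any of the 9 genes on any array was 7.47, so none of them passed the filter through 1 variant alone. Wild type had the highest mean for 8 of the 9 genes, S100A10 being the exception. The order wild type, BR200, BR100 from high to low held for 5 of them: S100A2, S100A4, S100A6, S100A11 and S100P. How many of all genes share either pattern was not counted. Between the clones 2 of the 9 were called, both higher in BR200, where 6.39% of all genes were called higher, 4.23% lower and 10.6% in either direction.

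**Figure D3:**
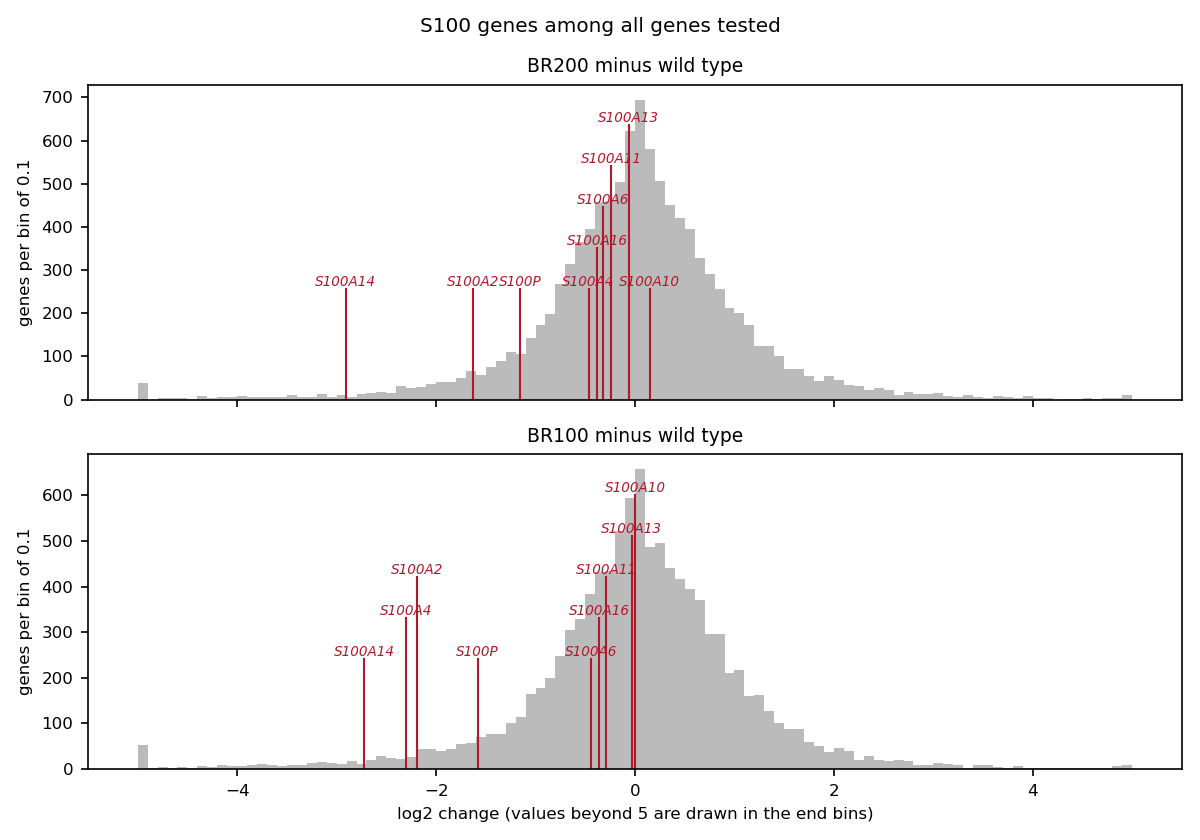
Number of genes, in bins of 0.1, by log2 change in BR200 minus wild type (top) and BR100 minus wild type (bottom) over all 10370 genes tested, with the S100 genes marked by lines whose heights carry no value. S100A14, S100A2 and S100P lie in the lower tail in both clones and S100A4 only in BR100, where its log2 change was −2.30.

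The labelling kit moved several of these genes as well. Express minus One-Cycle was positive and past the threshold for 5 of the 9 genes, where 22.4% of all genes were called higher (34.0% in either direction, and 34.3% of probe sets). It was largest for S100A4 at 0.65 (SE 0.0891, limma adjusted p = 0.0123) and S100A13 at 0.50 (SE 0.0638, limma adjusted p = 0.0108). S100A11 was the gene called lower on Express arrays (limma adjusted p = 0.0214), where 11.7% of all genes were called lower. Since each kit was used in each variant, the kit is balanced over the comparisons of variants. Each called S100 gene had the same sign of change within both kits in the 3 comparisons of variants. The modelled change is the mean of the within-kit differences, so this agreement is largely built into the call.

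Some S100 genes were measured by more than 1 probe set, and these did not always move together. Of the 13 probe sets 11 passed the filter. When every probe set was tested on its own, 7 of the 11 were called in BR200 and 9 in BR100, all of them lower. Of all probe sets, 57.4% and 61.4% were called in either direction, and the share called lower was not counted. In this fit S100A11 was not called in BR200 (limma adjusted p = 0.0531), nor S100A2 between the clones (limma adjusted p = 0.0675). The second S100A10 probe set, 238909_at, had log2 levels of 7.77 and 8.12 in BR200, 6.41 and 6.85 in BR100, and 7.66 and 8.14 in wild type (Express first). It was low in BR100 alone, by −1.27 against wild type (SE 0.0791, limma adjusted p = 0.000924), while the BR200 change was 0.039 (limma adjusted p = 0.704). For this probe set BR200 exceeded BR100 by 1.31 (limma adjusted p = 0.0157), where 5.98% of all probe sets were called. The brighter probe set of the gene, 200872_at, did not pass in any comparison. When the probe sets of a gene were averaged, S100A10 was called in BR100 with a change of −0.63 (limma adjusted p = 0.00152). The second S100A6 probe set, 228923_at, lay between 3.66 and 4.93, near background, and changed by −0.73 in BR200 and −0.29 in BR100 (limma adjusted p = 0.0032 and 0.0346). The second probe set of S100A13 stayed between 2.27 and 2.46. S100A11 has several RefSeq pseudogenes, and whether its probes also bind their transcripts was not tested.

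**Figure D4:**
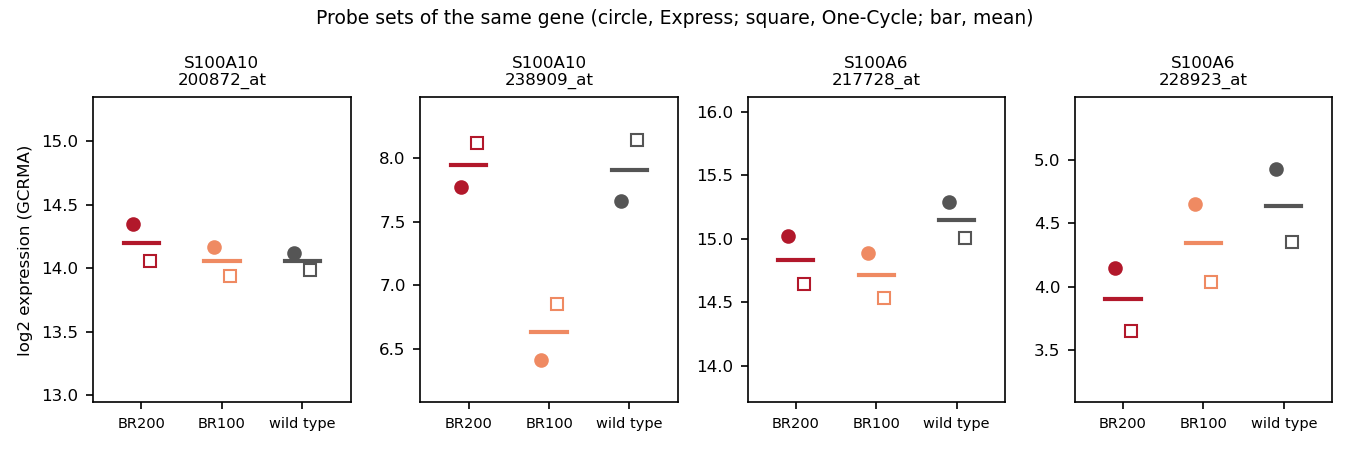
Log2 expression (GCRMA) by cell variant for the 2 probe sets each of S100A10 and S100A6, with circles for Express arrays, squares for One-Cycle arrays and bars for means. Each vertical axis spans 2.4 log2 units. Probe set 238909_at of S100A10 is low in BR100, and 200872_at of the same gene is level.

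In RefSeq gene order, 9 of the 10 genes lie on chromosome 1 and S100P on chromosome 4. S100A10 and S100A11 stand at one end of the chromosome 1 stretch, and S100A6, S100A4, S100A3, S100A2, S100A16, S100A14 and S100A13 near the other. Direct neighbours differed in size of change: S100A14 stands between S100A16 and S100A13, whose changes were −0.38 and −0.064 in BR200 against −2.91 for S100A14. The stretch these 9 genes span holds 54 further protein-coding genes, of which 31 had a probe set of their own and 4 passed the filter. Of these, 3 encode small proline-rich proteins, precursors of the cornified envelope of squamous epithelia. SPRR1B had log2 levels of 6.52 and 6.32 in BR200, 7.43 and 7.25 in BR100, and 3.17 and 2.33 in wild type (Express first). SPRR3 had 5.01 and 4.97 in BR200, 5.17 and 5.06 in BR100, and 2.41 and 2.42 in wild type. Wild type was below log2 4 for both, so both passed the filter only through the clones and had to differ, and their log2 differences, 3.67 and 2.58 in BR200 and 4.59 and 2.70 in BR100, are given as values with no test. SPRR1A, at log2 4 or above on all arrays, rose by 1.37 in BR200 and 1.67 in BR100 (limma adjusted p = 0.00423 and 0.00218), and S100A7A did not pass (limma adjusted p = 0.214 and 0.164).

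**Figure D5:**
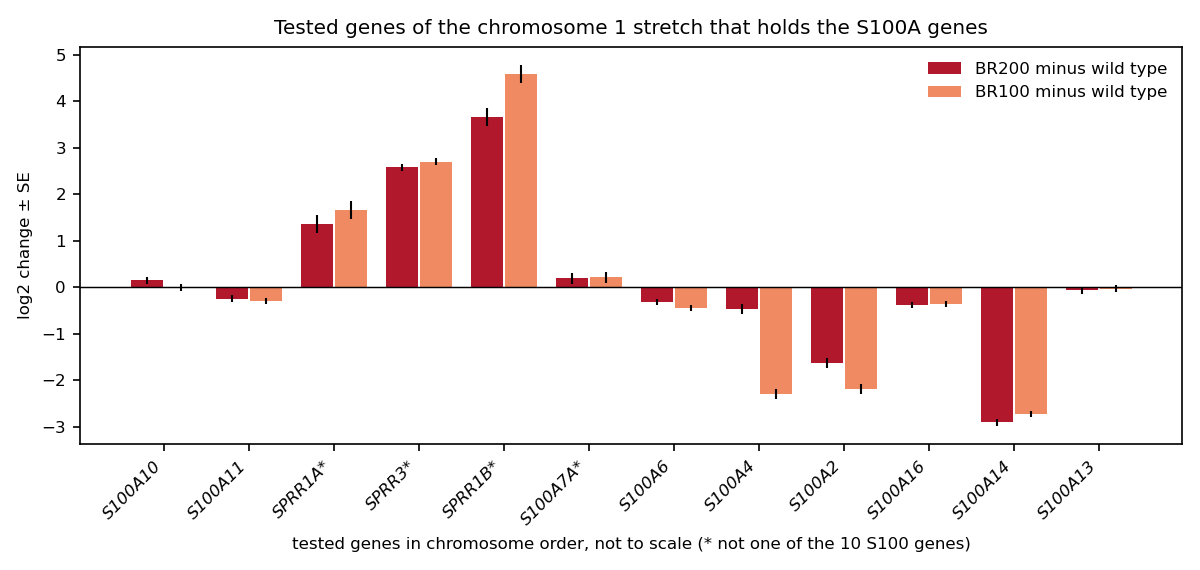
Log2 change against wild type with its SE for the 12 tested genes of the chromosome 1 stretch, in gene order and not to scale, BR200 to the left of BR100 for each gene. Stars mark the 4 genes outside the set of 10. SPRR1A, SPRR3 and SPRR1B lie above 0, and the S100 genes from S100A6 to S100A14 lie below it.

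The other S100 genes were mostly not above background. Of 11 listed, 10 were on the array, and 7 of them, including S100A8, S100A9 and S100A12 of myeloid cells and S100B of glia, had no value above 2.24 on any array. S100A7A was the gene that passed the filter, with a mean of 5.16 in BR200, 5.18 in BR100 and 4.96 in wild type, and its other probe set stood at 2.23 throughout. S100A5, which lies between S100A6 and S100A4, had 2.46 on both arrays of BR200, 2.35 and 2.33 in BR100, and 3.21 and 4.63 in wild type, so 1 array alone reached 4. The fused-type genes, whose proteins begin with an S100 domain, had 5 of 7 on the array and none above 2.24.

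Receptors and partners of S100 proteins were taken from a list chosen by known binding. Among 6 receptors, 3 passed the filter; AGER, the gene of RAGE, was at 2.24 on all 6 arrays. TLR4, a receptor of innate immunity, had a mean log2 level of 6.72 in BR200, 6.93 in BR100 and 4.75 in wild type. It rose by 1.98 in BR200 and 2.19 in BR100 (SE 0.212 each, limma adjusted p = 0.00181 and 0.00126). BSG, or basigin, rose by 0.97 in BR200 and 1.11 in BR100 (limma adjusted p = 0.000514 and 0.000342). Its mean log2 level was 8.99 in BR200, 9.13 in BR100 and 8.02 in wild type, with single arrays from 7.02 to 10.13. Express minus One-Cycle was −2.00 for BSG, larger in size than either change, and the arrays overlapped across kits. ALCAM, an adhesion protein, rose in BR200 by 0.81 (limma adjusted p = 0.00228), while its change in BR100 was 0.083 (limma adjusted p = 0.474). The clones differed for it by 0.73 (limma adjusted p = 0.0257).

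Of 10 annexins tested, 5 were higher and 2 lower in BR200, and 3 were higher and 2 lower in BR100. Among all genes tested 35.4% were called higher and 31.2% lower in BR200. In BR100 these shares were 36.7% and 31.8%. ANXA2, the partner of S100A10, did not pass (0.041 in BR200 and −0.021 in BR100). ANXA1, the partner of S100A11, rose by 0.32 in BR200 (limma adjusted p = 0.0127) and was at −0.19 in BR100 (limma adjusted p = 0.0582), and the clones differed by 0.51 (limma adjusted p = 0.0257). ANXA9 rose by 1.47 in BR200 and 0.78 in BR100, and the clones differed (limma adjusted p = 0.0173). ANXA10 fell in both, with log2 changes of −0.92 in BR200 and −1.43 in BR100, and the clones differed here too (limma adjusted p = 0.035). The 5 annexins higher in BR200 include ANXA6, with log2 levels of 5.70 and 4.43 in BR200, 3.83 and 3.81 in BR100, and 3.71 and 3.82 in wild type (Express first), which passed the filter only through BR200 and had to differ there. The medians over the 10 annexins were 0.25 in BR200 and 0.033 in BR100.

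Among 12 tested binding partners 6 were higher and 1 lower in BR200, and 6 were higher and 3 lower in BR100. Over all genes 35.4% were called higher and 31.2% lower in BR200, and 36.7% higher and 31.8% lower in BR100. CACYBP, the S100A6-binding adaptor of a ubiquitin ligase, rose by 1.57 in BR200 and 1.83 in BR100 (SE 0.0787 each, limma adjusted p = 0.000285 and 0.000193). SUGT1, another S100A6 partner, rose by 0.75 in BR200 and 0.59 in BR100 (limma adjusted p = 0.00136 and 0.00255). Of the nonmuscle myosin heavy chains, MYH10 rose by 1.32 in BR200 and 1.13 in BR100, and MYH9 did not pass (0.21 in BR200 and −0.12 in BR100). AHNAK, a large scaffold bound by the S100A10 and annexin A2 complex, fell by 0.71 in BR200 and by 0.52 in BR100 (limma adjusted p = 0.00112 and 0.00247). EZR, which encodes ezrin, fell by 0.67 in BR100 (limma adjusted p = 0.00549), was at 0.034 in BR200 (limma adjusted p = 0.797), and differed between the clones by 0.70 (SE 0.106, limma adjusted p = 0.0336). Of the remaining listed partners, FGF1 and SYT1 of the S100A13 export complex were at 2.23 on all arrays.

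The S100 genes also differed in how alike their profiles were over the 6 arrays, each centred on its own mean. The closest pair was S100A11 and S100A16, at a Euclidean distance of 0.189, and the farthest was S100A10 and S100A14, at 3.38. S100A2 and S100P were 0.639 apart, and S100A4 was 1.44 from each of them. Of 10369 other genes, the 5 nearest to S100A14 were HERPUD1 (distance 0.166), TMEM170B (0.200), DNAJB9 (0.231), ENDOD1 (0.256) and GFPT1 (0.280). Their changes against wild type were −2.66 to −3.00 in BR200 and −2.50 to −2.85 in BR100. TMEM170B was near background in both clones. These distances describe 6 arrays of 3 variants and carry no test.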

How the data were processed

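Log2 expression values, 1 per probe set (54675 in all), were deposited by the authors and had been made with GCRMA per the submitters' processing notes; its version is not given in the sources used here. They were used as deposited, and no detection calls were used. Precision is limited by signal over background and by the number of arrays. Probe sets were named from the platform annotation: 41097 named 1 gene, 1801 several and 11777 none. Of those naming 1 gene, 41043 matched RefSeq (GRCh38.p14) by gene identifier, with no symbol changed. Each of 19775 genes was represented by its probe set with the highest mean. Genes with at least 2 of 6 arrays at log2 4 were tested (10370).

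One linear model over all 6 arrays, with variant and labelling kit, was fitted in R 4.3.3 by lmFit and eBayes of limma 3.58.1, and tested on simulated data. Tests were two-sided, and "called", "rose" and "fell" mean p under 0.05 after Benjamini-Hochberg adjustment over every gene tested. The model had 2 residual degrees of freedom and 2.33 prior ones. SE and 95% intervals are limma's. No label gives separate cultures for the arrays of 1 variant, so p-values are not taken to measure the spread between cultures. They measure only how far the differences between variants disagree between the kits, since variant and kit are both in the model. Replicate 1 is the Express array and replicate 2 the One-Cycle array, and the kit is the block. Alternatives varied the kit block, the probe set rule, the filter, the scaling, the variance model and the arrays included.

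The S100 genes and the gene lists were chosen with earlier results of these data known. All 10 S100 genes were named, and list genes passing the filter could be. Neighbours were all 4 further genes that passed the filter in the stretch that the S100 genes span on chromosome 1. Profile likeness was measured to the S100 gene with the largest change.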

Additional observations from a re-analysis of the deposited data

Results flagged for a closer look

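For 2 of the 9 tested S100 genes the change against wild type differed between the clones by limma's test of BR200 minus BR100. Over all genes tested 10.6% were called in that comparison, 6.39% of them all being higher in BR200. The S100A4 change in BR200 exceeded that in BR100 by 1.83 on the log2 scale (limma adjusted p = 0.00645). The S100A2 change in BR200 exceeded that in BR100 by 0.56 (limma adjusted p = 0.0438). Neither call was kept without the kit in the model (limma adjusted p = 0.149 for S100A4 and 0.507 for S100A2). The same held without the filter on low values (limma adjusted p = 0.101 and 0.229). Both genes were lower than wild type in both clones. Both clones share the wild type arrays, so the difference is that between the clones themselves.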

How the results depend on the processing

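S100A14, S100A2 and S100P in both clones, and S100A4 in BR100, kept their direction and their call against wild type under all 15 alternatives with a test. Their ranges were −2.96 to −2.85, −1.76 to −1.49 and −1.25 to −1.06 in BR200, and −2.76 to −2.69, −2.33 to −2.04, −1.70 to −1.46 and, for S100A4, −2.47 to −2.13 in BR100, within-kit values included. The 15 were not all distinct. For a clone against wild type, leaving out either array of the other clone gave the same result as leaving out both. The smaller falls of S100A6, S100A11, S100A16 and, in BR200, S100A4 kept their direction in every alternative and lost their call in some. Without the replicate block (the kit) 3 S100 genes were called in BR200, 4 in BR100 and 0 between the clones (1 at an unadjusted p under 0.05), and the counts of all genes were 4100, 4387 and 112. When 1 array was left out, 3 to 6 S100 genes were called in BR200, 5 to 7 in BR100 and 0 to 1 between the clones. The lowest count in BR200, 3, came without either BR200 array, and 4 were called without wild type replicate 2. Over all genes these fits called 0 to 61 between the clones, and a fit of the clones' 4 arrays alone called 61, with 1 S100 gene. Without the filter, where many genes do not vary at all, 15 genes and 0 S100 genes were called between the clones (4 S100 genes at an unadjusted p under 0.05). With trend and robust eBayes 2254 genes were called there. With averaged probe sets, 4 S100 genes were called between the clones, S100A10 among them, and S100A10 turned to −0.63 in BR100. Each kit was paired across the variants by design. Quantile normalization and centring of arrays changed no S100 call. S100A13 in every comparison, and S100A6 and S100A16 between the clones, changed sign in 1 to 3 alternatives without a call, and S100A10 in BR100 did in 5, of which only the averaged probe sets gave a call. Apart from the smaller number of arrays in some fits, the causes were not tested.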
